A study of Mus musculus with 6 samples.

Results

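The glycolytic enzyme genes described here are Hk2, Gpi1, Pfkl, Aldoa, Tpi1, Gapdh, Pgk1, Pgam1, Eno1 and Ldha, taken by symbol from the deposited expression table. All 10 had a single entry each, among 17169 gene entries, and all 10 were among the 14232 entries tested, those averaging 1 FPKM or more over the 6 libraries. FPKM counts fragments per transcript length and per mapped fragment. The study measured transcript levels by sequencing in 3 mouse cell lines, BBC, ZNF and BCRF8C, which come from bone marrow of diseased Balb/c mice. The disease, stem cell leukemia and lymphoma (SCLL), arises from FGFR1 fusion kinases. Each line was cultured for 24 h with BGJ398 (infigratinib), which inhibits FGFR kinases, or with DMSO as the control, and 1 library was made per line and agent. The protocol lists 3 lines and 3 doses, and on the assumption that both lists run in parallel the dose was 30 nM in BBC, 3 nM in ZNF and 1.5 nM in BCRF8C. Dose and line cannot be told apart. The labels name neither the fusion that each line carries nor its clonality, and they name the cultures BBC2, ZNF112 and BCRF8C, grown in RPMI medium with serum.

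Glycolysis splits glucose into pyruvate and yields ATP without oxygen. Hexokinase traps glucose in the cell, phosphofructokinase commits it to the pathway, and lactate dehydrogenase turns pyruvate into lactate while it regenerates the NAD+ that the dehydrogenase step consumes. Rapidly dividing blood cells and leukemias use the pathway heavily, and the transcription factors MYC and HIF1 are known to activate many of its genes. The study's question was what inhibiting FGFR1 does to the transcriptome of these lines.

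All 3 blood cell markers were above 1 FPKM in each library, at uneven levels. With DMSO, Ptprc stood at 86.1 FPKM in BBC, 176 in ZNF and 95.8 in BCRF8C, Coro1a at 286, 226 and 1.38, and Cd52 at 699, 2.48 and 11.2. All 7 B lineage markers were above 1 FPKM in BBC (summed level 1384 FPKM with DMSO), and all 4 T lineage markers with an entry were in ZNF (622). BCRF8C with DMSO had summed levels of 0.654 and 3.34 FPKM for the same B and T lineage markers. With BGJ398, all 4 T lineage markers were above 1 FPKM in BBC too (summed level 32.8), and 3 were in BCRF8C (8.95). With BGJ398, 3 of the 7 B lineage markers were above 1 FPKM in ZNF (7.52) and 3 in BCRF8C (9.10). The 2 myeloid and 2 erythroid markers with an entry summed highest in BBC with DMSO, at 5.97 and 22.5 FPKM. The stromal markers with an entry, Col1a1 and Col1a2, summed to between 0.372 and 14.9 FPKM over the 6 libraries, highest in BCRF8C with BGJ398. Over the tested entries the median level was 9.95, 8.36 and 9.03 FPKM in BBC, ZNF and BCRF8C with DMSO and 4.53, 6.47 and 4.92 FPKM with BGJ398. The depth of the libraries is unknown.

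Promoter sequences are shown because a MYC binding motif, the E-box CACGTG, and the shorter ACGTG core bound by HIF1 are textbook elements of this pathway. Windows from 250 bases before to 50 bases after each start were taken from RefSeq (build GRCm38.p6, not the build of the expression table), matched by symbol for 10 of 10 genes. Capitals mark ACGTG on either strand (CACGT on the other), which includes every CACGTG, and sequences are written 5′ to 3′ along the gene. Ldha is shown as the gene with the E-box, in its window 1. Its window 2 (chr7:46846832-46847131), not shown, holds neither motif. Pgk1 and Hk2, which hold the short core alone, and Gpi1, which holds neither, were chosen after the matches were seen.
Ldha (chr7:46845554-46845853, plus strand): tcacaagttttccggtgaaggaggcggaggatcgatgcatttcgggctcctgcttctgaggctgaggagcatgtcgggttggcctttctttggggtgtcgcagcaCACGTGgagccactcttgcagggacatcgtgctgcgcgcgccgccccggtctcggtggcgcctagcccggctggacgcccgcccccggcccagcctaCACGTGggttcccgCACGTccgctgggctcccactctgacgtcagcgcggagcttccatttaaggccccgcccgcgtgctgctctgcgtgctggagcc
Pgk1 (chrX:106186850-106187149, plus strand): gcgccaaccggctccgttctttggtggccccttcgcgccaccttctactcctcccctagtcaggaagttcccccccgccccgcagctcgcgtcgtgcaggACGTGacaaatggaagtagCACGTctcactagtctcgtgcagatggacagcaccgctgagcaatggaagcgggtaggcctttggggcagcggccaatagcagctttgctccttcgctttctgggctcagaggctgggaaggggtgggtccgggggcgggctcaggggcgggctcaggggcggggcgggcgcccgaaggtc
Hk2 (chr6:82774405-82774704, minus strand): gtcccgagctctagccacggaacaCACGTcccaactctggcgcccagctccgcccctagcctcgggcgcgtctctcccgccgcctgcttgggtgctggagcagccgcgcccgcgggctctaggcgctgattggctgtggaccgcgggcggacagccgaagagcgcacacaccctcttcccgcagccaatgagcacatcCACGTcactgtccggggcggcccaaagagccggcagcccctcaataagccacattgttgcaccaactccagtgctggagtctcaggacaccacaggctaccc
Gpi1 (chr7:34230287-34230586, minus strand): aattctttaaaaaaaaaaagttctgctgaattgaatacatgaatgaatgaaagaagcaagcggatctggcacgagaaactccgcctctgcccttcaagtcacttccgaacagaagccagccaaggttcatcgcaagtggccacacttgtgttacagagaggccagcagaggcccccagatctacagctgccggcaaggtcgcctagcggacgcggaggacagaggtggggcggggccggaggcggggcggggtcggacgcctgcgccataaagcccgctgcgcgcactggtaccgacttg

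In the Ldha window shown, the CACGTG matches begin 145 and 48 bases before the start, and a further core match begins 34 bases before it. The E-box was found in 1 of the 10 genes, against 8.09% of the 27025 genes with a window and 7.15% of all 32851 windows. The core ACGTG was found in 6 of 10 (Hk2, Aldoa, Gapdh, Pgk1, Pgam1 and Ldha), against 21.8% of genes and 19.6% of windows. The SP1 type GC box GGGCGG was found in 9 of 10 (38.2% of genes, 35.7% of windows) and the TATA box TATAAA in 0 of 10 (15.7% of genes, 13.6% of windows), each searched on both strands. By window, CACGTG was in 1, ACGTG in 7, GGGCGG in 11 and TATAAA in 0 of the 15 windows of the enzyme genes. These 15 windows had GC contents between 52.7% and 69.0%, against a median of 52.7% over all windows. Base composition sets how often such short words occur. The matches are a description of these windows, and no binding was measured.

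With DMSO, the enzymes of the middle and end of the pathway were among the most abundant transcripts in each line. Ldha was at 463 FPKM in BBC, 599 in ZNF and 814 in BCRF8C, above 98.3%, 98.7% and 99.0% of all entries. Aldoa, which cleaves the phosphorylated hexose, was at 400.0, 345 and 1011 FPKM, and Gapdh, the dehydrogenase that makes NADH, at 318, 405 and 1227 FPKM. Hk2 was the lowest of the 10 in each line, at 7.21, 5.19 and 13.95 FPKM, which lay above 52.5%, 51.2% and 66.5% of entries. Pfkl, the liver type phosphofructokinase gene, was next to lowest at 47.5, 36.2 and 34.0 FPKM. The levels of the 10 genes therefore spanned a wide range, with Hk2 and Pfkl at the bottom. Both share their step with isozyme genes outside the 10. With DMSO the hexokinase genes summed to 44.0, 14.1 and 49.6 FPKM in BBC, ZNF and BCRF8C. The phosphofructokinase genes summed to 93.9, 76.0 and 232 FPKM. The top of the order differed between the lines: Ldha led in BBC and ZNF, and Gapdh in BCRF8C.

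The untreated lines differed in level. Of the 10 genes, 9 were highest in BCRF8C, and Pfkl was highest in BBC. Among all tested genes 34.5% were highest in BCRF8C. After quantile normalization, which gives each library the same distribution of values, the count was again 9, against 38.0% of genes. Summed over the 10 genes, the level with DMSO was 2153 FPKM in BBC, 2029 in ZNF and 4587 in BCRF8C. Eno1, the enolase gene, was 4.44-fold higher in BCRF8C than in ZNF, and Gapdh was 3.86-fold higher in BCRF8C than in BBC. Pgk1, an ATP-yielding kinase of the lower pathway, differed by 1.02-fold between BCRF8C and BBC. With 1 library per line these are differences between libraries and were not tested.

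**Figure D1:**
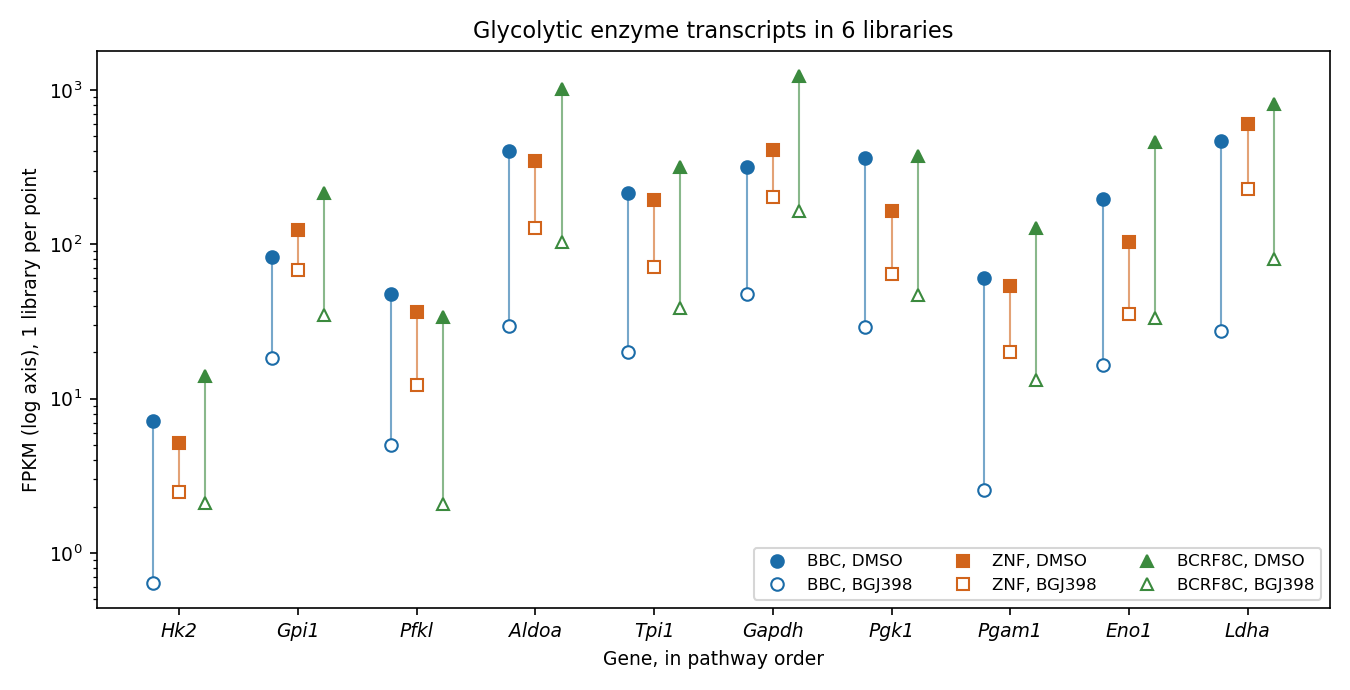
FPKM (log axis) of the 10 glycolytic enzyme genes in pathway order, with 1 point per library; filled symbols are DMSO and open symbols BGJ398, joined within a line. Each open symbol lies below the filled symbol of its line, and the gap is smallest in ZNF.

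Each of the 10 genes was lower with BGJ398 than with DMSO in each of the 3 lines, as were 55.7% of the genes tested. For all 10, the 3 BGJ398 libraries lay below the 3 DMSO libraries, which held for 35.1% of the genes tested. Together they kept 9.13% of their summed DMSO level in BBC (2153 to 197 FPKM), 41.1% in ZNF (2029 to 833) and 11.3% in BCRF8C (4587 to 517). In the limma test across the lines, with the line as a block, all 10 fell at an adjusted p between 0.0348 and 0.0380, where 30.2% of the 14232 genes tested were called lower and 6.61% higher. The mean log2 ratios of FPKM + 1 ranged from -2.92 for Ldha to -1.80 for Hk2, with a median of -2.65 against -0.69 over all genes tested. Among genes averaging 5 FPKM or more, tested on their own, all 10 passed, beside 4910 of 9109 genes called lower. The calls depended on the scaling and on 1 line. None of the 10 passed after median-of-ratios scaling (adjusted p from 0.0523 to 0.0668) or after quantile normalization (0.150 to 0.278), where 0.00703% of genes were called lower in each. None passed with the trend of the ratio on expression removed (0.156 to 0.409) or without the BBC libraries (0.235 to 0.249), where 0.0% were. With no block for the line none passed (0.0797 to 0.0967), beside 0.00703% of genes. Without the ZNF libraries 10 passed, beside 33.7% of genes. Without BCRF8C 8 passed, beside 5.99%, and Gpi1 (adjusted p = 0.172) and Gapdh (0.151) did not. Their mean ratios were below 0 in each of these fits, and with that trend removed their median was -1.17 against 0.03 over all genes.

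The genes of the upper pathway, which spend ATP to prepare glucose for cleavage, went down by different amounts. Hk2 (ENSMUSG00000000628, chromosome 6, 82675019 to 82724448 in NCBIM37), the inducible hexokinase gene, went in BBC from 7.21 to 0.644 FPKM, in ZNF from 5.19 to 2.47 and in BCRF8C from 13.95 to 2.12. Its highest BGJ398 library was ZNF, and the mean log2 ratio was -1.80 ± 0.84 (SD, n = 3 lines; adjusted p = 0.0348). Gpi1 (ENSMUSG00000036427, chromosome 7, 34987141 to 35015308), which interconverts the phosphates of glucose and fructose, went in BBC from 82.6 to 18.4 FPKM, in ZNF from 124 to 68.4 and in BCRF8C from 214 to 34.8. Its value in ZNF with BGJ398 came near that in BBC with DMSO. The mean log2 ratio of Gpi1 was -1.85 ± 0.90 (adjusted p = 0.0363). Pfkl (ENSMUSG00000020277, chromosome 10, 77449692 to 77472828), a gene for the committed step, went in BBC from 47.5 to 5.03 FPKM, in ZNF from 36.2 to 12.2 and in BCRF8C from 34.0 to 2.08. The mean ratio of Pfkl was -2.67 ± 1.05, and in BCRF8C its FPKM was 16.4-fold lower, the largest fold of the 10 genes there, while on the log2(FPKM + 1) scale Eno1 (-3.75) lay below Pfkl (-3.51).

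The genes of the cleavage steps changed by similar amounts to each other. Aldoa (ENSMUSG00000030695, chromosome 7, 133938748 to 133944265) went in BBC from 400.0 to 29.6 FPKM, in ZNF from 345 to 128 and in BCRF8C from 1011 to 104, a mean log2 ratio of -2.80 ± 1.22. Tpi1 (ENSMUSG00000023456, chromosome 6, 124758679 to 124764314), which equilibrates the triose phosphates, went in BBC from 216 to 20.2 FPKM, in ZNF from 195 to 71.1 and in BCRF8C from 314 to 38.6 (-2.60 ± 1.02). For both genes ZNF was the highest of the BGJ398 libraries and the lowest of the DMSO libraries.

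Among the genes of the energy-yielding steps, Gapdh changed least. Gapdh (ENSMUSG00000057666, chromosome 6, 125111871 to 125116485) went in BBC from 318 to 47.3 FPKM, in ZNF from 405 to 203 and in BCRF8C from 1227 to 163, a mean log2 ratio of -2.21 ± 1.05 (adjusted p = 0.0380). Pgk1 (ENSMUSG00000062070, chromosome X, 103382439 to 103399038) went in BBC from 363 to 29.2 FPKM, in ZNF from 163 to 64.1 and in BCRF8C from 372 to 46.5 (-2.63 ± 1.17). Pgam1 (ENSMUSG00000011752, chromosome 19, 41986361 to 41993154), which moves the phosphate group of phosphoglycerate, went in BBC from 60.1 to 2.57 FPKM, in ZNF from 53.7 to 19.97 and in BCRF8C from 127 to 13.2 (-2.88 ± 1.38). The 23.4-fold lower value of Pgam1 in BBC was the largest difference of any of the 10 genes in any line. Eno1 (ENSMUSG00000063524, chromosome 4, 149610830 to 149622988) went in BBC from 195 to 16.5 FPKM, in ZNF from 104 to 35.4 and in BCRF8C from 460.2 to 33.4 (-2.92 ± 1.22).

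Ldha (ENSMUSG00000063229, chromosome 7, 54096845 to 54110997), the lactate dehydrogenase gene that serves lactate production, went in BBC from 463 to 27.2 FPKM, in ZNF from 599 to 228 and in BCRF8C from 814 to 79.7. Its mean log2 ratio was -2.92 ± 1.37 (adjusted p = 0.0348). Its value with BGJ398 in ZNF was more than that of the other lines together. Of its isozyme genes, Ldhb and Ldhc had no entry under those symbols.

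**Figure D2:**
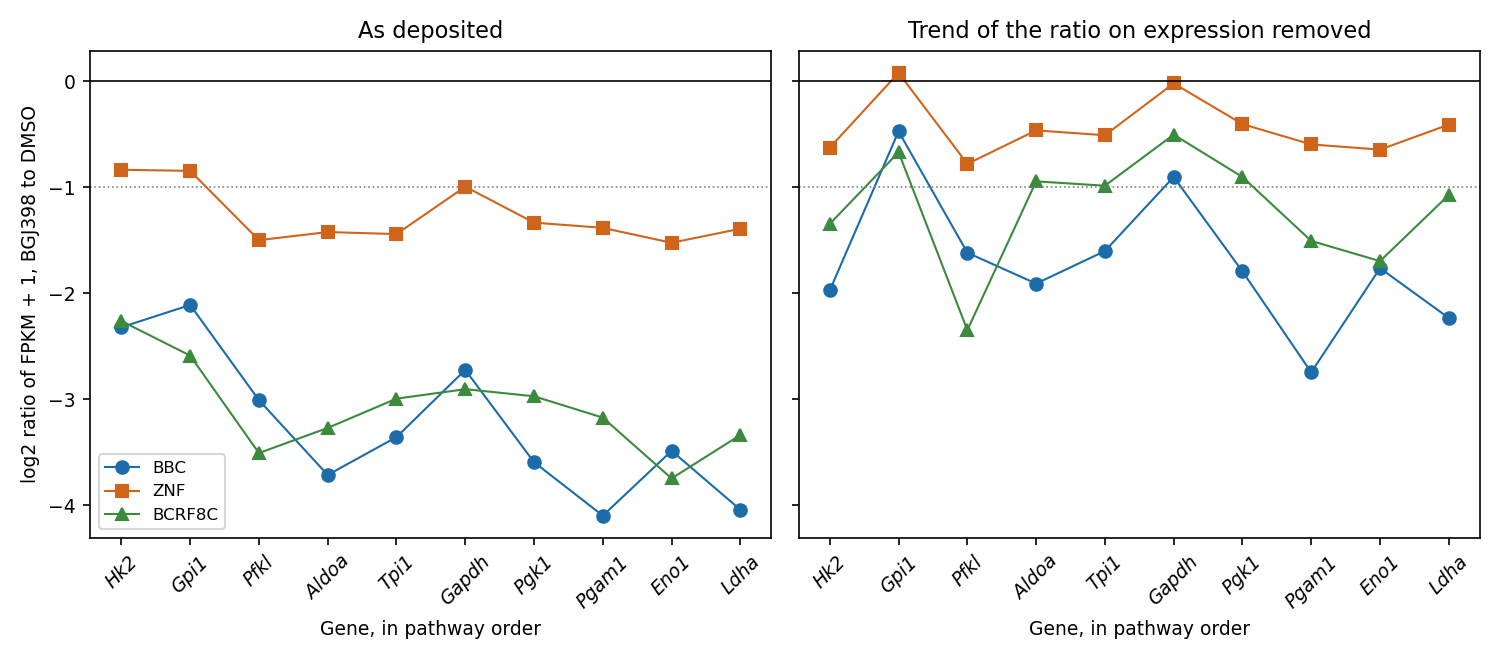
Log2 ratio of FPKM + 1, BGJ398 to DMSO, for the 10 genes in pathway order, as deposited (left) and with the trend of the ratio on expression removed within each line (right); 1 ratio per line and gene, dotted line at 2-fold lower. ZNF lies above the other lines throughout, and Gpi1 in ZNF crosses 0 on the right, at 0.08.

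Within the lines, all 10 genes were at least 2-fold lower with BGJ398 in BBC, where 48.3% of genes averaging 1 FPKM or more in that line were. In BCRF8C it was again 10 of 10, against 46.3% of genes, and in ZNF 7 of 10, against 16.4%. The other 3 genes in ZNF were Hk2, Gpi1 and Gapdh, with log2 ratios of -0.83, -0.84 and -0.99. These ratios include the pseudocount of 1: the FPKM of Hk2 was 2.10-fold lower, and with a pseudocount of 0.1 the count in ZNF was 8. Of the 8930 genes averaging at least as much as Hk2, the lowest of the 10, 65.4% were at least 2-fold lower in BBC. The share was 61.2% in BCRF8C and 20.1% in ZNF. Since high values were lower in general, the 6 genes averaging 100 FPKM or more (Aldoa, Tpi1, Gapdh, Pgk1, Eno1 and Ldha) were set beside all 762 genes of that level. The median log2 ratio of the 6 was -3.54 in BBC, -1.41 in ZNF and -3.13 in BCRF8C, and that of the 762 was -1.99, -0.86 and -2.20. At that level 79.8%, 38.8% and 78.2% of genes were at least 2-fold lower, so the counts of 6, 5 and 6 of the 6 genes stand beside a high background.

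With the trend of the ratio on expression removed within each line, 8 of 10 genes were at least 2-fold lower in BBC (11.2% of genes), 5 of 10 in BCRF8C (13.9%) and 0 of 10 in ZNF (4.46%). Among genes averaging 100 FPKM or more it was 5 of 6 in BBC (20.9%), 2 of 6 in BCRF8C (25.6%) and 0 of 6 in ZNF (9.45%). The median of the 10 was -1.78 in BBC, -0.48 in ZNF and -1.03 in BCRF8C, where that of all genes averaging 1 FPKM or more in the line lay at 0.02, 0.02 and 0.06. In that form 9 of the 10 were below 0 in all 3 lines, as were 25.2% of all genes tested, and Gpi1 in ZNF, at 0.08, was the exception. Pgam1 in BBC (-2.74), Pfkl in BCRF8C (-2.35) and Ldha in BBC (-2.23) lay lowest. After quantile normalization 9 were at least 2-fold lower in BBC (17.3% of genes), 0 in ZNF (6.37%) and 8 in BCRF8C (20.5%). At 100 FPKM or more it was 6 of 6 (31.9%), 0 of 6 (9.97%) and 5 of 6 (33.7%) in the same order. After median-of-ratios scaling the counts were 10 (14.7%), 7 (7.76%) and 10 (20.7%). Among genes averaging at least as much as Hk2, the shares in that form were 20.7%, 9.25% and 28.6%. Among those averaging 100 FPKM or more the shares were 44.5%, 23.1% and 63.1%, beside 6, 5 and 6 of the 6 enzyme genes. Library, dose and agent cannot be told apart within a line, and the part of the general narrowing of values in these ratios was not tested beyond these scalings.

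**Figure D3:**
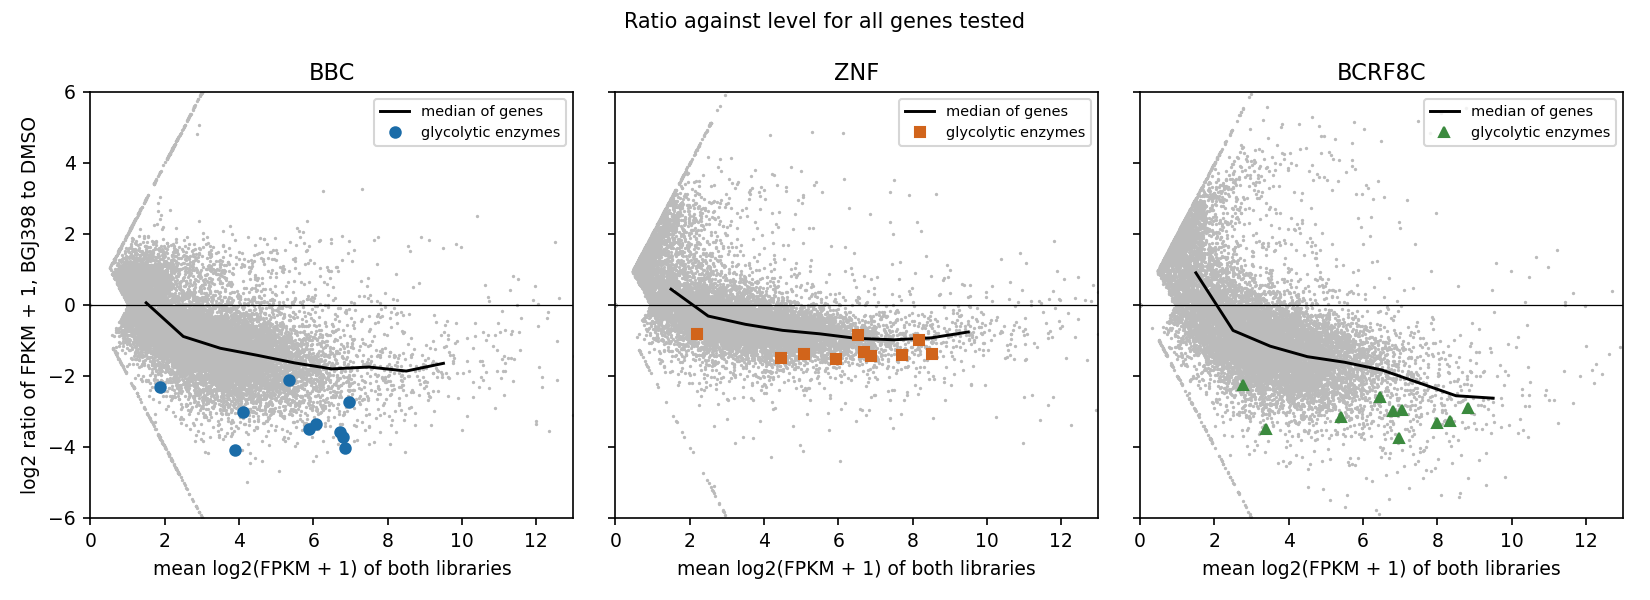
Log2 ratio of FPKM + 1, BGJ398 to DMSO, against the mean log2 level of both libraries of a line, for the 14232 genes tested (grey), their median in steps of 1 unit of the level with at least 20 genes (black) and the 10 glycolytic enzyme genes (coloured); 221, 115 and 77 genes lie outside the axes in BBC, ZNF and BCRF8C, and the grey diagonals are genes at or near 0 in 1 library. The black line declines from low to middle levels in each line, and most coloured points lie below it.

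The steps of the pathway can be compared within a library, where no scale factor enters, though the trend of the ratio on expression is not removed. Of the 45 pairs of genes, 25 shifted their ratio in the same direction in all 3 lines. The same count over pairs of other genes was not made, and pairs that share a gene are not independent. Gpi1 gained on each of the 9 other genes in all 3 lines, and Gapdh gained on 7 and lost only to Gpi1 in all 3. Hk2 gained on 5 and lost to 1 in all 3. The level of Gpi1 relative to Ldha went in BBC from 0.178 to 0.676, in ZNF from 0.2064 to 0.3003 and in BCRF8C from 0.263 to 0.437, a mean log2 shift of 1.06 ± 0.75 (SD, n = 3 lines). The level of Gapdh relative to Eno1 went in BBC from 1.63 to 2.87, in ZNF from 3.91 to 5.74 and in BCRF8C from 2.67 to 4.89, a mean shift of 0.75 ± 0.17. Pfkl, Aldoa, Pgam1, Eno1 and Ldha gained on no other gene in all 3 lines. An exact sign-flip test over 3 lines cannot go below p = 0.25, and no test of these shifts was made. With the expression trend removed Gpi1 (-0.35 ± 0.39) and Gapdh (-0.47 ± 0.44) had the mean ratios nearest to 0, while the other 8 lay between -1.61 for Pgam1 and -1.03 for Tpi1.

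After BGJ398 the order of the lines was another one. All 10 genes were highest in ZNF, as were 50.4% of all tested genes, and after quantile normalization 6 were highest in ZNF and 4 in BCRF8C (36.6% and 38.8% of genes). Gapdh rather than Ldha was the highest of the 10 in BBC, at 47.3 against 27.2 FPKM. In BCRF8C, Pfkl (2.08 FPKM) stood at the level of Hk2 (2.12 FPKM), which had been the lowest with DMSO.

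The isozyme genes of the same steps did not all go with the 10. Of 9 with an entry, 2 fell and 0 rose at an adjusted p under 0.05, beside 30.2% of all genes called lower. These were the phosphofructokinase genes Pfkp (-1.54 ± 0.90, adjusted p = 0.0416) and Pfkm (-1.05 ± 0.36, adjusted p = 0.0406), and the median of the 9 was -0.48. Hk1, the hexokinase gene that most tissues use, went in BBC from 36.2 to 36.4 FPKM, in ZNF from 8.73 to 8.26 and in BCRF8C from 35.6 to 13.3. Its mean ratio of -0.47 ± 0.77 as deposited became 0.73 with the expression trend removed, and neither passed (adjusted p = 0.338 and 0.293). Hk1 thus differed by less in BBC than Hk2, which was 11.2-fold lower there. The hexokinase domain gene Hkdc1 was at or below 0.573 FPKM in the DMSO libraries and with BGJ398 at 1.67 FPKM in BBC, 1.01 in ZNF and 7.14 in BCRF8C (adjusted p = 0.0744).

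As a share of the summed FPKM of the hexokinase genes, Hk2 went in BBC from 16.4% to 1.66%, in ZNF from 36.9% to 21.1% and in BCRF8C from 28.1% to 9.40%. The Hk2 share was thus lower with BGJ398 in all 3 lines, while the summed hexokinase level went in BBC from 44.0 to 38.7 FPKM, in ZNF from 14.1 to 11.7 and in BCRF8C from 49.6 to 22.5. In BCRF8C, Hkdc1 held 0.196% of that sum with DMSO and 31.7% with BGJ398. Pfkl held 50.6% of the phosphofructokinase level in BBC, 47.6% in ZNF and 14.7% in BCRF8C with DMSO, and 19.5%, 36.3% and 5.96% with BGJ398. In BCRF8C the platelet type gene Pfkp led that step, with 193 FPKM and 83.3% of the level with DMSO and 31.3 FPKM with BGJ398. Aldoa held at least 97.6% of the aldolase level in each library, so that its partner Aldoc contributed little. Eno1 held between 94.7% and 98.3% of the enolase level with DMSO and between 82.4% and 85.3% with BGJ398, beside Eno2 and Eno3. That level leaves out Gm5506, a near copy of Eno1. With DMSO its FPKM was 17.0% of that of Eno1 in BBC, 16.0% in ZNF and 13.9% in BCRF8C. Counting error is unknown for these shares, and there was 1 library behind each.

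**Figure D4:**
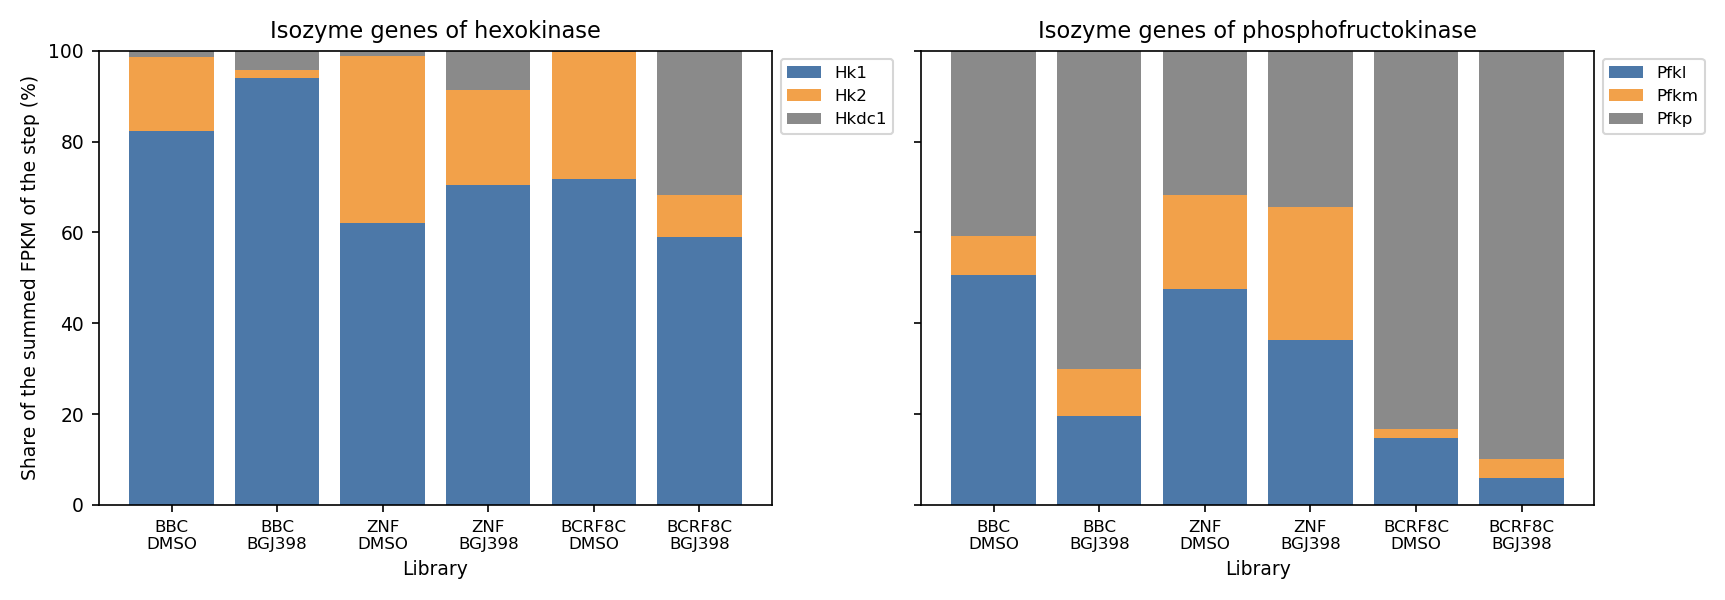
Share (%) of the summed FPKM of the hexokinase genes Hk1, Hk2 and Hkdc1 (left) and the phosphofructokinase genes Pfkl, Pfkm and Pfkp (right) in each library. The segment of Hk2 and that of Pfkl are smaller with BGJ398 than with DMSO in each line.

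Genes around the enzymes fell in part. The count of each list is to be read beside the 30.2% of all genes tested that were called lower. Among genes averaging 5 FPKM or more, tested on their own, 4910 of 9109 were called lower. Pkm2, the pyruvate kinase entry of the table, went in BBC from 1056 to 111 FPKM, in ZNF from 709 to 316 and in BCRF8C from 889 to 85.8 (-2.59 ± 1.23, adjusted p = 0.0363). Of 7 glucose and lactate transport genes 4 fell and 0 rose, among them the glucose carrier gene Slc2a1 (-1.80 ± 0.79), the lactate carrier gene Slc16a1 (-1.86 ± 1.22) and Bsg, which encodes the partner of lactate carriers (-2.08 ± 0.99). Of 10 tested genes that control glycolysis 3 fell, a share like that of all genes: the pyruvate dehydrogenase kinase genes Pdk1 (-1.33 ± 0.71) and Pdk3 (-1.53 ± 0.46) and the phosphatase gene Minpp1 (-1.40 ± 0.65). In the pentose phosphate pathway, which branches off after hexokinase, 5 of 8 fell, led by the transketolase gene Tkt (-2.44 ± 0.88) and the transaldolase gene Taldo1 (-2.42 ± 0.91). Of 4 gluconeogenesis genes 3 fell, among them Pck2 (-2.05 ± 0.04).

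Of 20 genes of pyruvate dehydrogenase and the TCA cycle, which burn the product of glycolysis, 17 fell, 0 rose and all 20 were lower in all 3 lines, beside 30.2% and 55.7% of all genes tested. Idh3a (-2.30 ± 0.99), Sdhb (-2.25 ± 0.81) and Sdhd (-2.16 ± 0.93) were the largest changes. Of 8 genes of the glycerol phosphate and malate shuttles 6 fell, including Got2 (-2.02 ± 0.87). Of 12 hypoxia targets outside glycolysis 5 fell, beside 30.2% of all genes, with Ankrd37 (-1.94 ± 0.74) and Egln1 (-1.58 ± 0.47) the largest. The medians of these lists ran from -0.81 for the control genes and -0.96 for the hypoxia targets to -1.48 for the TCA cycle and -1.70 for gluconeogenesis, beside -2.65 for the 10 enzymes. With the expression trend removed, the medians were 0.01 for the control genes, -0.14 for the pentose phosphate pathway, -0.18 for the hypoxia targets, -0.34 for the TCA cycle, -0.45 for the shuttles, -0.50 for transport and -0.84 for gluconeogenesis, beside -1.17 for the 10. No gene of these lists passed in that form or without BBC.

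**Figure D5:**
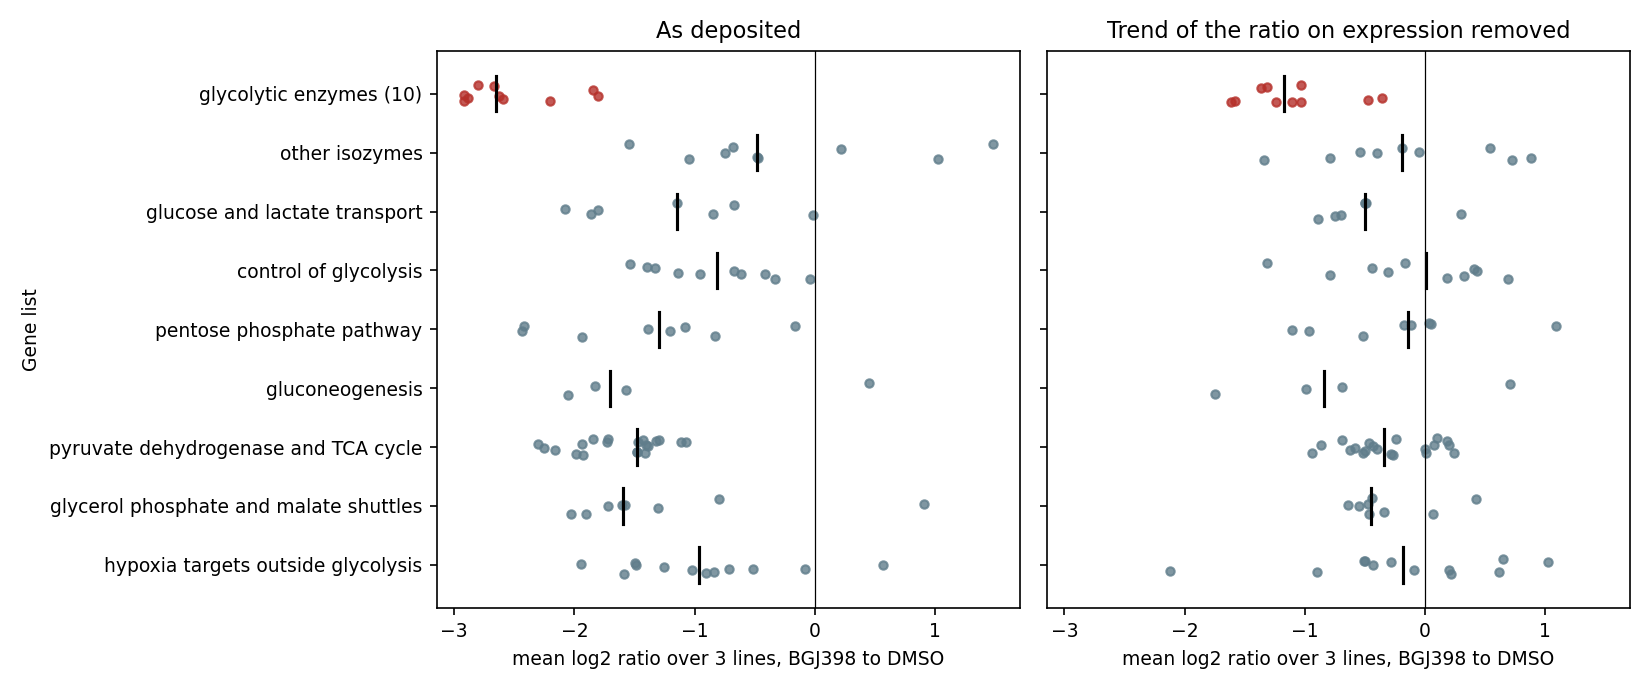
Mean log2 ratio over 3 lines, BGJ398 to DMSO, for each tested gene (points, spread vertically for view) of the 10 enzymes (red) and of 8 lists around the pathway (grey), with the median of each list (black), as deposited (left) and with the expression trend removed (right). The medians of the 10 are -2.65 and -1.17, left of those of the 8 lists in both panels. The list of near copies (3 genes tested, medians -0.68 and -1.34) and pyruvate kinase are not drawn. Of the 3, Pgam2 and Hk1 are isozyme genes, and Gm5506, the near copy of Eno1, stood at -3.09 and -2.08.

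Profiles were compared with those of other genes, the 10 enzymes left out. Over the 6 libraries, the mean profile of the 10 genes on the log2(FPKM + 1) scale, with the mean of each gene subtracted, differed least from Slc25a39, a mitochondrial carrier gene (root mean square difference 0.155), among 6327 other genes averaging 10 FPKM or more. Atp5g3, which encodes a subunit of ATP synthase (0.164), Tcf19 (0.181), Timm10, for mitochondrial import (0.182), and Tmem97 (0.186) followed. Slc25a39 went in BBC from 52.6 to 7.07 FPKM, in ZNF from 53.2 to 23.9 and in BCRF8C from 121 to 13.1. In the search for each enzyme on its own, which included the other enzymes averaging 10 FPKM or more, Aldoa and Pgam1 were each the closest gene to the other (0.175). The nearest profile to Eno1 was that of Gm5506 (0.178), a near copy of it.

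Several of the enzymes have near copies in the genome that can share reads. In GENCODE vM21, the share of 50-base stretches of the longest coding transcript that also occur in a transcript of another gene was 82.5% for Gapdh, 72.2% for Eno1, 68.0% for Pgk1 and 41.5% for Pgam1. It was 25.3% for Gpi1, 16.6% for Ldha, 13.5% for Aldoa, 7.51% for Tpi1, 0.0543% for Pfkl and 0% for Hk2, so the values of the first 4 are the least certain. Of 136 other genes with at least 50 shared stretches, 10 had an entry. Gm13394, a Gapdh pseudogene, went in BBC from 151 to 15.6 FPKM, in ZNF from 182 to 94.1 and in BCRF8C from 394 to 28.5. Gm5506 went in BBC from 33.1 to 1.57 FPKM, in ZNF from 16.6 to 4.84 and in BCRF8C from 63.7 to 3.16. With the 5 entries that share stretches added, Gapdh was 6.80-fold, 1.95-fold and 8.05-fold lower with BGJ398 in BBC, ZNF and BCRF8C, beside 6.72-fold, 1.99-fold and 7.52-fold on its own. Eno1 with its 2 copies was 12.5-fold, 3.05-fold and 15.2-fold lower, beside 11.8-fold, 2.93-fold and 13.8-fold on its own.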

How the data were processed

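Transcript levels in 6 libraries (3 of BGJ398, 3 of DMSO, 1 per line and agent) were taken from 1 table of FPKM values deposited by the authors, whose 6 value columns all matched a sample title. The tools named per the submitters' processing notes are TopHat2 (version 2.0.12) and bcl2fastq, and the build is NCBIM37. For the program behind FPKM, its annotation, strand setting and treatment of shared reads, the sources used here say nothing. The depth is unknown, since values are not whole multiples of 1 read (29 values above 0 lie too low for that), and intervals for counting error are lacking. Printed starts are 1 above the table's, which fits a count from 0: of 15944 entries matched to GENCODE vM21, end minus start gave the annotated length in 6377 and 1 less in 166.

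Values were analysed as log2(FPKM + 1), which understates changes of low genes. Entries averaging 1 FPKM or more were tested with limma 3.58.1 (R 4.3.3; intensity trend, line as block, two-sided, Benjamini-Hochberg over all genes, threshold 0.05); every adjusted p comes from it. It was also run on simulated data that held no trend of the ratio on expression, which says nothing about the calls here. With 1 library per line and agent, p-values reflect only how far 3 lines at 3 doses differ. With all 3 lines and the block the fit leaves 2 residual degrees of freedom. The line pairs the libraries, since both come from 1 cell line: deviations from group means correlated at 0.454, 0.541 and 0.549 within BBC, ZNF and BCRF8C. Trend removal subtracted a loess curve (span 0.3) of the ratio on the mean level within a line. Within a line, differences of 2-fold were counted without a test. Alternatives were other scalings, pseudocounts, filters, no block, no intensity trend and leaving out a line. The enzymes, lists and rules were chosen with earlier results of these data known. All 10 enzymes are named; of isozymes, pyruvate kinase, transport and near copies any may be named, of other lists the 3 with the largest mean ratios, and the 5 nearest profiles. The entry with the highest mean stood for a symbol with several entries (101 symbols). Protein sequences were not used here.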

Additional observations from a re-analysis of the deposited data

Results flagged for a closer look

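On the log2(FPKM + 1) scale, 3 genes among the enzymes and the lists around them moved by at least 2-fold in opposite directions in different lines. None was 1 of the 10 enzymes. By FPKM without the pseudocount further genes did. Slc16a3 was 3.06-fold higher in BBC and 11.4-fold lower in BCRF8C, and Aldoc 2.51-fold higher in ZNF and 3.64-fold lower in BCRF8C. With 1 library per line and agent, the differences between lines were not tested. Slc2a8, a glucose carrier gene, had a log2 ratio of 1.62 in ZNF (3.24 to 12.01 FPKM) and -1.12 in BBC (6.33 to 2.37 FPKM). Fbp1, which encodes the gluconeogenic enzyme that opposes phosphofructokinase, had a ratio of -1.09 in ZNF (92.1 to 42.7 FPKM) and 1.43 in BCRF8C (0.001 to 1.71 FPKM). Its BCRF8C value with DMSO is near 0, so the size of that ratio rests on the pseudocount. P4ha2, a collagen hydroxylase gene among the hypoxia targets, had a ratio of 2.02 in ZNF (1.23 to 8.08 FPKM) and -1.07 in BCRF8C (9.02 to 3.78 FPKM). With the expression trend removed the same pairs of ratios were 2.05 and -0.40 for Slc2a8, -0.21 and 0.51 for Fbp1, and 2.21 and -0.14 for P4ha2.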

How the results depend on the processing

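The mean ratios of the 10 enzymes were below 0 in all 150 values over 15 settings, and 179 of 180 ratios within a line were; the exception was Gpi1 in ZNF, at 0.0809 with the expression trend removed. The calls were less stable. The number of genes called was 5236 in the fit as designed, 3 after quantile normalization (3340 at an unadjusted p under 0.05), 4 after median-of-ratios scaling (5756), 0 with the trend removed (3022), 7 with no replicate block (5679) and 448 with the trend removed among genes above 0 in all 6 libraries, a setting added after the data were seen. Of the 10 enzymes, 10 passed in the fit as designed and 0 in each of the other settings just listed. The number of other pathway genes called was 47 as designed, 1 in the added setting and 0 in the rest of these settings. Without replicate 1 (BBC), 2 (ZNF) or 3 (BCRF8C), the counts ranged from 0 to 4974 for all genes, from 0 to 10 for the enzymes and from 0 to 49 for the other pathway genes. Without BCRF8C they were 1648, 8 (not Gpi1 and Gapdh) and 6, and without BBC all 3 were 0 (2991 genes at an unadjusted p under 0.05). Enzymes at least 2-fold lower in ZNF numbered 7 as deposited, 0 after quantile normalization, 0 with the trend removed and 7 with median-of-ratios scaling, and in BCRF8C 10 and, with the trend removed, 5. Other pseudocounts and filters, and limma without its intensity trend, left the 10 calls. The cause of the differences between settings was not tested. Depth is unknown and limits what the lowest values, such as Hk2 in BBC with BGJ398, can show.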
